A study of Mus musculus with 16 samples.

Results

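The 10 genes described here encode receptors for transforming growth factor beta (TGF-beta), the SMAD proteins that carry the signal, and repressors that act on SMADs, in mouse regulatory T cells (Tregs) and in whole skeletal muscle. They are the receptor genes Tgfbr1, Tgfbr2 and Tgfbr3, the SMAD genes Smad2, Smad3, Smad4 and Smad7, and the corepressor genes Ski, Skil and Tgif1. They were taken by symbol from the 52997 genes of the count table, with no threshold on any value, and all 10 were found. They were chosen by name with earlier results of these same libraries, their levels in the 7 groups, already known. Their values are therefore a description of these genes, and a count over the list is not independent evidence of anything.

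TGF-beta binds a type II receptor kinase, which recruits and activates a type I receptor kinase. The type I receptor phosphorylates SMAD2 and SMAD3, which join SMAD4 and bind DNA, while SMAD7 blocks the active receptor and SKI, SKIL (also called SnoN) and TGIF1 hold SMAD complexes in a repressed state. In T cells TGF-beta helps to induce Foxp3, the transcription factor that defines Tregs, and the integrin chain gene Itgae, and Smad7 and Skil are themselves known to be induced by the pathway.

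Libraries came from B6 mice aged 6 to 8 weeks that carried (Tg) or lacked (WT) the mTreg24 T cell receptor (TCR) transgene, which was made from a muscle Treg receptor. Tg Tregs were sorted as Vβ8+ cells from mTreg24 TCR-tg+ Foxp3 GFP+ mice, and WT Tregs as total Tregs from TCR-tg- Foxp3 GFP+ mice, so the sort gate differed between genotypes as well as the transgene. The Treg groups, with 2 libraries each, were Tg muscle and WT muscle at day 3 after cardiotoxin injury, Tg spleen and WT spleen at that time, and Tg spleen of uninjured mice. That WT spleen came from injured mice is stated in the series' design text and not in the sample labels. Whole muscle at day 8 after injury was measured in 3 mTreg24 TCR-tg+ and 3 TCR-tg- libraries, for which no Foxp3 GFP allele is stated. The labels name neither the promoter of the transgene nor whether animals were pooled, and all sorted Tregs of both genotypes carried the Foxp3 GFP reporter.

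The 10 Treg libraries held between 1986700 and 9116800 counts, and the 6 libraries of whole muscle between 5095999 and 7075420. The deepest, the second WT muscle Treg library, had a count for 17081 genes, the fewest of the 16 libraries, and 0 counts of Tgfbr3. The 6 Treg markers summed to between 4410 and 7218 CPM (counts scaled by the library total) in every sorted group and to at most 13.4 CPM in whole muscle. Several marker lists moved with the muscle against spleen comparison. The 5 dissociation and stress genes (Fos, Jun, Hspa1a, Dusp1 and Atf3) summed to 2997 to 3490 CPM in Tg muscle Tregs, against 192 to 319 CPM in injured Tg spleen Tregs, and to 2891 to 3199 CPM in WT muscle Tregs, against 301 to 319 CPM in WT spleen Tregs. All 5 were higher in muscle in both genotypes, and Hspa1a and Atf3 had 0 counts in both WT spleen libraries. The 7 macrophage and monocyte genes summed to 18.02 to 28.97 CPM in Tg muscle Tregs, against 148 to 161 CPM in injured Tg spleen Tregs, and to 10.2 to 17.6 CPM in WT muscle Tregs, against 90.8 to 111 CPM in WT spleen Tregs. The 4 B cell genes summed to 7.59 to 11.9 CPM in Tg muscle Tregs, against 40.7 to 83.4 CPM in injured Tg spleen Tregs, and to 7.14 to 7.68 CPM in WT muscle Tregs, against 22.2 to 58.4 CPM in WT spleen Tregs. Fibroblast markers summed to at most 9.22 CPM in any Treg library, with Lum at 0 in every one of them. The part of these differences in the results below was not tested.

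The promoters of Tgif1 and Tgfbr2 are shown because Tgif1 had a large muscle against spleen difference in both genotypes and Tgfbr2 had the smallest range of group means on the log2 CPM scale. Each is the 250 bases before an annotated start in RefSeq (GRCm38.p6), on the minus strand, outside the annotated exons of its own gene. Exons of other genes were not checked. Capitals mark the SMAD-binding core CAGAC, searched on both strands and so also written GTCTG. The Tgif1 window is at chr17:70851735-70851984, inside an intron of longer Tgif1 transcripts, and the Tgfbr2 window is at chr9:116175364-116175613.
Tgif1: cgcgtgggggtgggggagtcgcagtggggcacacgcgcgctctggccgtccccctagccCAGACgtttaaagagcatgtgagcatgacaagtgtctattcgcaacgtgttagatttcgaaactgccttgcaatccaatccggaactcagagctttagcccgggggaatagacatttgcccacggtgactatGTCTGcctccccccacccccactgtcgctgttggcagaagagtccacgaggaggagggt
Tgfbr2: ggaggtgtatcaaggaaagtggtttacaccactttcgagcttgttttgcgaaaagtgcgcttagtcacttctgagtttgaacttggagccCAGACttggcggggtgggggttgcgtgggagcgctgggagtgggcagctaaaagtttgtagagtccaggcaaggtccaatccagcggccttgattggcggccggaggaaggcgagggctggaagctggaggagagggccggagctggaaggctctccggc
The Tgif1 window held 2 matches and the Tgfbr2 window held 1. RefSeq lists 5 start windows for Tgif1, with 1, 2, 0, 1 and 0 matches, and the one shown, which has the most, was picked with these counts known. Of 32851 RefSeq promoter windows of this length, 42.2% held at least 1 match, so the motif is common. Neither window held the SMAD palindrome GTCTAGAC, found in 0.167% of windows, or the AP-1 motif TGANTCA, found in 6.75%. Since only CAGAC matched, no matches of different motifs overlapped, and a match describes letters only.

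The first question was how muscle Tregs differ from spleen Tregs of the same genotype after injury. Transcripts of 3 inhibitors of the pathway, the corepressor genes Tgif1 and Skil and the inhibitory SMAD gene Smad7, were higher in muscle in both genotypes. Transcripts of the signalling receptors Tgfbr1 and Tgfbr2 and of Smad2 and Smad4 did not pass the test in either genotype, and the coreceptor gene Tgfbr3 was nearly absent from muscle Tregs. Calls are from edgeR's quasi-likelihood test over 13188 genes at a Benjamini-Hochberg adjusted p under 0.05, with log2 fold changes on the TMM scale, which aligns the bulk of genes between libraries. In Tg, 4 of the 10 genes were higher and 0 lower, where the same rule called 7.38% of all tested genes, 4.83% higher and 2.55% lower. In WT, 4 were higher and 1 lower, where it called 16.2% of all genes, 9.38% higher and 6.87% lower. The list was chosen with such results known, so nothing is read from these shares. Without the second WT spleen library 3 rather than 5 were called in WT, and 3 also when the WT groups were fitted alone. Calls over all genes in WT also moved, from 1046 to 2302 over the alternatives that left out no library, against 2143 here. The median log2 fold change of the 10 genes was 0.28 in Tg, against -0.04 over all tested genes, and 0.36 in WT, against -0.04. The 2 comparisons share no libraries. Both were tested in 1 fit of the 10 Treg libraries with a shared estimate of spread, so their calls are not independent.

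**Figure D1:**
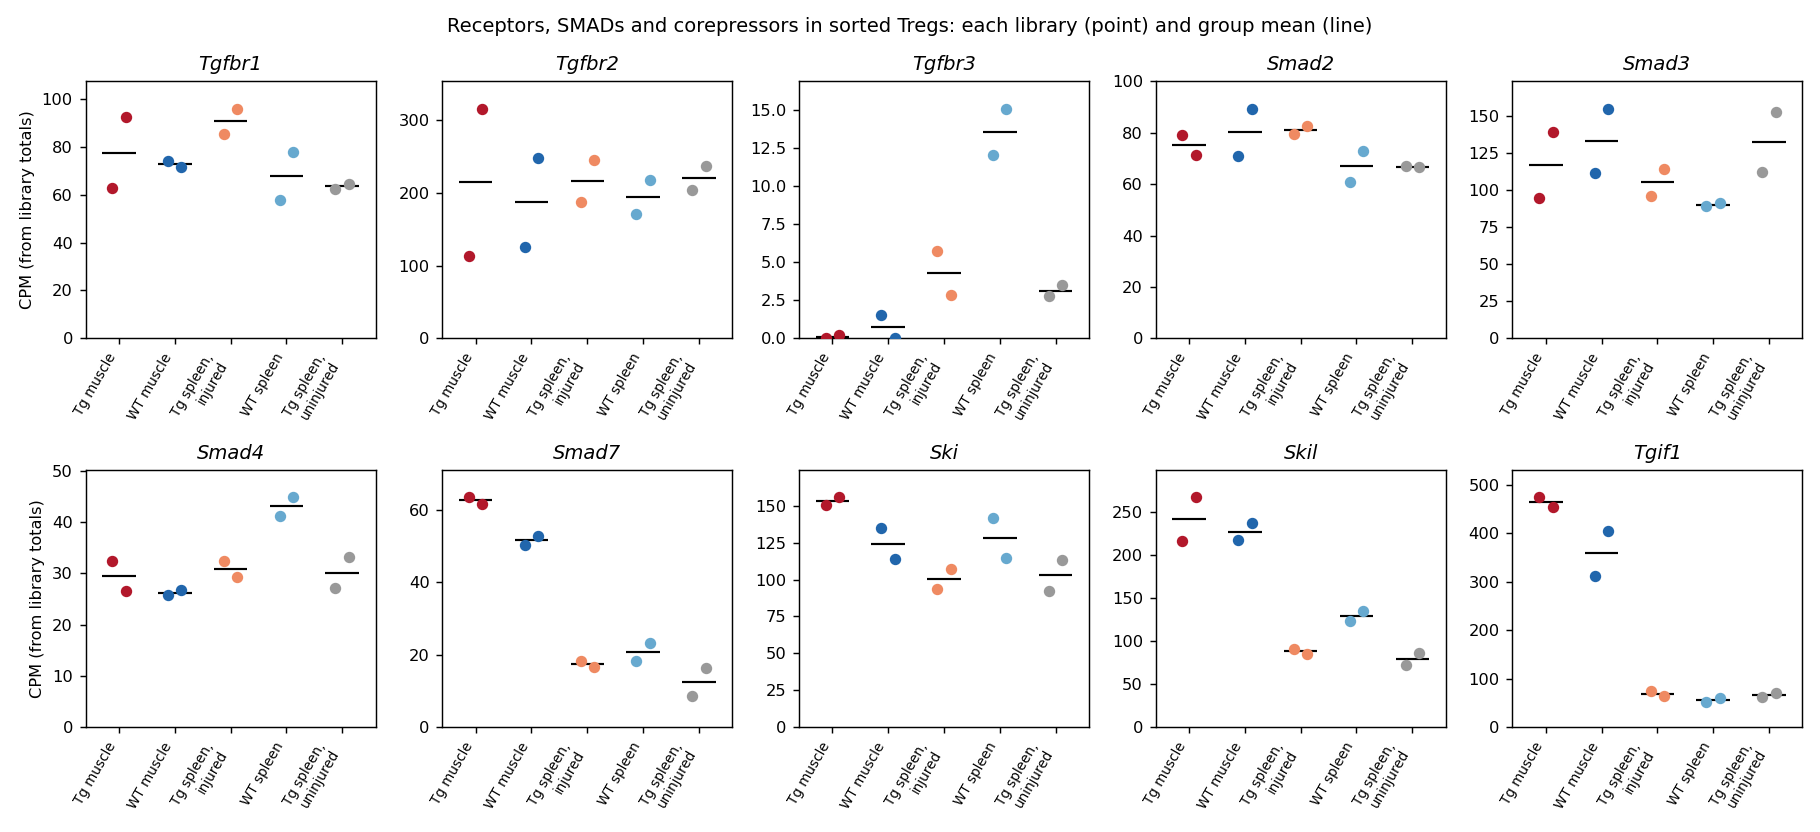
CPM of each gene (vertical axis, from library totals, starting at 0) in the 5 Treg groups, with a point for each of 2 libraries and a line at the group mean. Tgif1, Skil and Smad7 lie higher in both muscle groups than in every spleen group, Tgfbr3 lies lower in both, and the 2 libraries of Tgfbr2 in Tg muscle stand at 113 and 316 CPM.

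Tgif1 (chromosome 17, 70844205 to 70853546, build mm10) encodes a homeodomain repressor that recruits histone deacetylases to SMAD2 and SMAD3. It had 475 and 456 CPM in Tg muscle Tregs, against 74.0 and 63.8 CPM in injured Tg spleen Tregs. In WT it had 312 and 406 CPM in muscle, against 51.8 and 60.6 CPM in spleen. Every muscle library was thus above every spleen library, and uninjured Tg spleen, at 61.03 and 69.3 CPM, lay with the other spleen groups. The log2 fold change was 2.95 ± 0.18 (SE) in Tg, with an edgeR adjusted p of 1.08e-07, and 2.86 ± 0.18 in WT, with an edgeR adjusted p of 1.86e-07. Per kilobase of annotated exon, Tgif1 was the most abundant of the 10 genes in both muscle groups, at 82.7 ± 2.39 CPM per kb in Tg and 63.8 ± 11.9 in WT (SD, n = 2). In injured Tg spleen, by the same measure, it stood at 12.3 ± 1.28 CPM per kb and was the fifth of the 10, and in WT spleen at 9.998 ± 1.104 and the seventh.

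Skil (chromosome 3, 31095058 to 31122577) encodes SnoN, which binds SMAD complexes and is destroyed when the receptor is active. It had 216 and 267 CPM in Tg muscle Tregs, against 90.8 and 84.9 CPM in injured Tg spleen Tregs. WT muscle Tregs had 217 and 236 CPM of it, against 123 and 134 CPM in WT spleen Tregs. The muscle and spleen libraries did not overlap in either genotype. The log2 fold change was 1.66 ± 0.17 in Tg (edgeR adjusted p = 1.48e-05) and 1.00 ± 0.16 in WT (edgeR adjusted p = 0.000723). The close relative Ski (chromosome 4, 155154075 to 155222592) had 151 and 156 CPM in Tg muscle Tregs, against 93.7 and 107 CPM in injured Tg spleen Tregs. In WT the libraries overlapped, at 135 and 114 CPM in muscle, against 142 and 115 CPM in spleen. Ski was called in Tg, with a log2 fold change of 0.81 ± 0.17 (edgeR adjusted p = 0.00777), but not in WT, at 0.14 ± 0.17 (edgeR adjusted p = 0.632). Without the first injured Tg spleen library the Tg call of Ski was lost, with an edgeR adjusted p of 0.107.

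Smad7 (chromosome 18, 75367529 to 75395935) encodes the inhibitory SMAD that blocks the type I receptor and brings ubiquitin ligases to it. It had 63.4 and 61.7 CPM in Tg muscle Tregs, against 18.2 and 16.5 CPM in injured Tg spleen Tregs. In WT muscle it had 50.4 and 52.9 CPM, against 18.1 and 23.1 CPM in WT spleen. All 4 muscle libraries exceeded all 6 spleen libraries, of which uninjured Tg spleen was lowest at 8.67 and 16.2 CPM. The log2 fold change was 2.04 ± 0.28 in Tg (edgeR adjusted p = 0.000303) and 1.49 ± 0.28 in WT (edgeR adjusted p = 0.00228).

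Of the SMADs that transmit the signal, Smad3 (chromosome 9, 63646767 to 63757994) had 95.2 and 139 CPM in Tg muscle Tregs, against 96.3 and 114 CPM in injured Tg spleen Tregs, so these libraries overlapped. WT muscle Tregs had 112 and 155 CPM, against 89.6 and 91.3 CPM in WT spleen Tregs, without overlap. Smad3 passed in WT only, with a log2 fold change of 0.76 ± 0.23 (edgeR adjusted p = 0.0366), against 0.36 ± 0.23 in Tg (edgeR adjusted p = 0.419). The WT call did not hold under 7 alternatives, among them the fits without the second WT muscle library (log2 fold change 0.445, edgeR adjusted p = 0.283), without the first or the second WT spleen library (edgeR adjusted p = 0.136 and 0.175) and without the first injured Tg spleen library (edgeR adjusted p = 0.0513). Smad2, the other receptor-activated SMAD, had 79.3 and 71.4 CPM in Tg muscle Tregs, against 79.5 and 82.5 CPM in injured Tg spleen Tregs. In WT muscle it had 70.9 and 89.4 CPM, against 60.9 and 73.1 CPM in WT spleen. The Tg libraries of Smad2 were lower in muscle without overlap on the CPM scale while its TMM log2 fold change was 0.09 ± 0.20, and neither genotype passed (edgeR adjusted p = 0.858 in Tg and 0.144 in WT). Without the first WT muscle library Smad2 was called higher in WT muscle, with an edgeR adjusted p of 0.0434. Smad4, the partner shared by all activated SMADs, had 32.4 and 26.6 CPM in Tg muscle Tregs, against 32.3 and 29.3 CPM in injured Tg spleen Tregs. In WT muscle it had 25.7 and 26.8 CPM, below the 41.3 and 44.9 CPM of WT spleen, with a log2 fold change of -0.53 ± 0.25 that did not pass (edgeR adjusted p = 0.172).

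Among the receptors, Tgfbr1 (chromosome 4, 47353222 to 47414931), the type I kinase, had 62.8 and 92.4 CPM in Tg muscle Tregs, against 85.5 and 96.0 CPM in injured Tg spleen Tregs. WT muscle Tregs had 74.2 and 71.5 CPM, against 57.9 and 78.0 CPM in WT spleen Tregs. The libraries overlapped in both genotypes. Tgfbr2 (chromosome 9, 116084293 to 116175360), the type II kinase, had 113 and 316 CPM in Tg muscle Tregs, against 188 and 246 CPM in injured Tg spleen Tregs. In WT it had 126 and 248 CPM in muscle, against 171 and 218 CPM in spleen. The spread between muscle replicates of Tgfbr2 was wider than any difference between groups. In each Treg group the second library of Tgfbr2 stood above the first, as did that of Smad3, and the reason was not tested. The log2 fold changes of both receptors lay between -0.02 and 0.27, and Tgfbr2 changed sign with the library left out, so no direction is given for it. Per kilobase, Tgfbr2 was the most abundant of the 10 genes in all 3 spleen groups, between 23.7 and 26.9 CPM per kb.

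Tgfbr3 (chromosome 5, 107106570 to 107289629) encodes betaglycan, a membrane proteoglycan without kinase activity that presents TGF-beta to the type II receptor. Tg muscle Tregs had 0 and 1 counts of it, which is 0 and 0.225 CPM, against 24 and 12 counts in injured Tg spleen Tregs, or 5.75 and 2.84 CPM. WT muscle Tregs had 7 and 0 counts, or 1.51 and 0 CPM, against 24 and 68 counts in WT spleen Tregs, or 12.1 and 15.1 CPM. A count of 0 allows up to 3 counts in a library. Every muscle library was below every spleen library. From the summed counts, the ratio of muscle to spleen was 0.0318 in Tg (95% exact interval 0.000784 to 0.189) and 0.0359 in WT (0.0141 to 0.0771), intervals that cover counting error only. The WT decrease passed the test (log2 fold change -4.22 ± 1.07, edgeR adjusted p = 0.0151) and the Tg value did not (-4.55 ± 1.41, edgeR adjusted p = 0.0671). Without the second WT spleen library the WT call was lost (edgeR adjusted p = 0.105), and in the compared groups alone the edgeR adjusted p was 0.079. In Tg the same gene passed with DESeq2 (adjusted p = 0.0497), in the compared groups alone (edgeR adjusted p = 0.0229) and without either WT muscle library (edgeR adjusted p = 0.00656 and 0.00609). The sizes depend on single libraries. In Tg the log2 fold change was -3.90 without the first muscle library and -7.10 without the second, which leaves muscle with 0 counts. In WT it was -3.01 without the second muscle library and -8.76 without the first, which again leaves muscle with 0 counts, and a fitted value against 0 counts is no bound. Of the exon length of Tgfbr3, 4.5% is shared with the predicted gene Gm43422 on the same strand. The summed macrophage and B cell markers given above were also higher in the spleen libraries of both genotypes, and their part in the Tgfbr3 values was not tested.

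**Figure D2:**
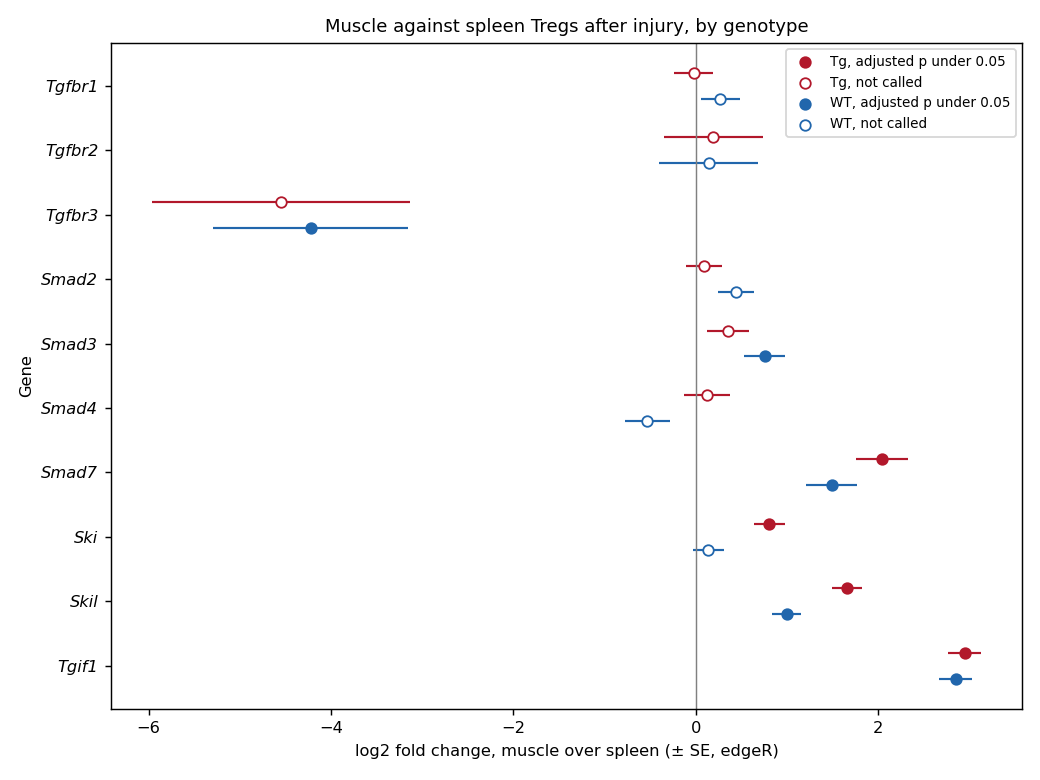
The log2 fold change of each gene in muscle over spleen Tregs (horizontal axis, edgeR on the TMM scale, bars ± SE) for Tg and WT mice after injury, with filled points at an adjusted p under 0.05. Tgif1, Smad7 and Skil are filled in both genotypes on the higher side, Ski in Tg, Smad3 in WT, and Tgfbr3 in WT on the lower side.

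Whether these tissue differences themselves differed between genotypes was tested as an interaction, and 0 of the 10 genes passed, where the rule called 0.136% of all genes (18 genes). At an unadjusted p under 0.05 there were 1046 genes. DESeq2 also called 0 of the 10. The muscle against spleen difference of Ski was larger in Tg than in WT by 0.67 ± 0.24 on the log2 scale (unadjusted p = 0.0138, edgeR adjusted p = 0.461). That of Skil was larger by 0.66 ± 0.23 (edgeR unadjusted p = 0.0117, edgeR adjusted p = 0.438). That of Smad7 was larger by 0.55 (edgeR adjusted p = 0.797). For Smad4 the log2 fold change was 0.129 in Tg and -0.53 in WT. Its Tg minus WT value of 0.66 (edgeR adjusted p = 0.702) is thus not a larger difference in Tg. The calls of Ski in Tg alone and of Smad3 and Tgfbr3 in WT alone are therefore not shown to be differences between genotypes.

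On the CPM scale, 6 of the 10 genes had muscle and spleen libraries that did not overlap in Tg, where 57.3% of all tested genes did so, and 6 in WT, where 57.6% did so. The scaling bears on directions near 0: the median log2 fold change of all genes was -0.24 with library totals, against -0.04 with TMM, in both genotypes. Higher genes made up 38.9% of all calls with library totals in Tg, against 65.5% with TMM, and 37.7% in WT, against 57.7% with TMM. With library totals the number of genes called among the 10 was 4 in Tg and 4 in WT. Over the alternatives that left out no library, calls over all genes numbered 974 to 1377 in Tg and 1046 to 2302 in WT. The main fit gave 973 and 2143, and nothing is read from the counts of 4. Tgif1, Skil, Smad7 and Tgfbr3 kept their direction under each alternative run.

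The 3 genes with the widest range of group means over the 5 Treg groups on the TMM log2 CPM scale were Tgfbr3 (5.27), Tgif1 (3.24) and Smad7 (2.54), followed by Skil (1.77), and Tgfbr2 had the smallest (0.21). Over the 10 Treg libraries, which fall into 2 tissues, the Pearson correlation of log2 CPM was 0.97 between Smad7 and Skil, 0.94 between Smad7 and Tgif1, and -0.90 between Tgfbr3 and Tgif1. These coefficients mostly restate the tissue difference and are given as descriptions. Among 7326 genes with a mean log2 CPM of at least 4, the 3 whose pattern over those libraries was closest to that of Tgif1 were Hilpda (0.994), Odc1 (0.993) and Dusp4 (0.993). Hilpda encodes a lipid droplet protein, Odc1 the first enzyme of polyamine synthesis and Dusp4 a MAP kinase phosphatase. The closest to Smad7 were Kdm6b, a histone demethylase gene (0.991), Slc25a25 (0.974) and Birc3 (0.973). The closest to Tgfbr3 was Bach2, a transcription factor gene of resting lymphocytes (0.979), followed by Cacna2d4 (0.971) and Edrf1 (0.968).

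**Figure D3:**
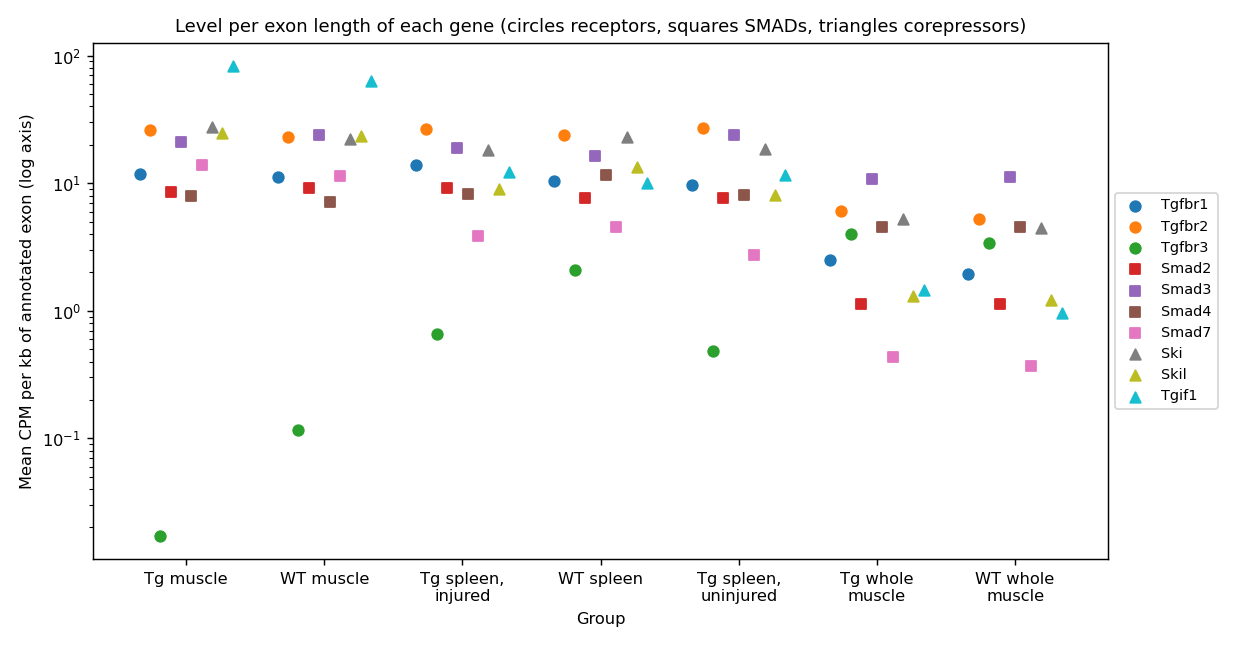
Mean CPM per kb of annotated exon (vertical log axis) of each gene in the 7 groups, with circles for receptors, squares for SMADs and triangles for corepressors. Tgif1 leads in both muscle Treg groups at 82.7 and 63.8 CPM per kb, Tgfbr2 leads in the spleen groups and Smad3 in both whole muscle groups, and the lowest Tgfbr3 point rests on 1 count.

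The remaining genes of the pathway were taken from 6 lists with 69 genes in all, also drawn up with earlier results known. Of the 47 tested in Tregs, 6 were higher and 2 lower in Tg muscle, with a median log2 fold change of 0.23, against -0.04 over all genes, and 9 were higher and 2 lower in WT muscle, with a median of 0.26, against -0.04. The same rule called 7.38% of all tested genes in Tg and 16.2% in WT, and nothing is read from the lists' shares. Without the second WT spleen library 5 rather than 11 were called in WT. The lists of other corepressors and coactivators, such as Ncor1, Ep300 and Crebbp, had 0 of 9 genes called in either genotype by edgeR.

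Among ligands and activators, Tgfb1, the main TGF-beta ligand gene of lymphocytes, had 19.7 and 22.8 CPM in Tg muscle Tregs, against 17.01 and 13.95 CPM in injured Tg spleen Tregs, and 16.9 and 8.78 CPM in WT muscle, against 8.56 and 14.7 CPM in WT spleen. It was not called in either genotype (edgeR adjusted p = 0.382 in Tg and 0.724 in WT). Furin, the protease that cleaves the TGF-beta precursor, had 125 and 168 CPM in Tg muscle Tregs, against 26.8 and 29.3 CPM in injured Tg spleen Tregs, a log2 fold change of 2.58 ± 0.32 (edgeR adjusted p = 0.000245). In WT it had 120 and 70.6 CPM in muscle, against 53.4 and 29.8 CPM in spleen, a log2 fold change of 1.40 ± 0.32 (edgeR adjusted p = 0.00963). Itgav, the integrin chain that helps to release active TGF-beta, was higher by 1.65 ± 0.25 in Tg and 1.23 ± 0.26 in WT. Lrrc32 encodes GARP, which anchors latent TGF-beta on the Treg surface. It had 68.3 and 188 CPM in Tg muscle Tregs, against 241 and 196 CPM in injured Tg spleen Tregs, and 127 and 129 CPM in WT muscle, against 491 and 504 CPM in WT spleen. Every muscle library was below every spleen library of its genotype, and Lrrc32 was called lower in WT (-1.77 ± 0.40, edgeR adjusted p = 0.0244) but not in Tg (-0.56 ± 0.39, edgeR adjusted p = 0.501). The WT call of Lrrc32 was lost when any 1 of 8 of the 10 Treg libraries was left out, those other than the Tg muscle libraries, with an edgeR adjusted p of up to 0.193. That of Furin was lost in the compared groups alone (edgeR adjusted p = 0.05). It was also lost without the second WT spleen library, where the log2 fold change was 1.01. Tgfb3, another ligand gene, summed to 58 counts in WT muscle Tregs, against 0 in WT spleen Tregs, and was at least 9.13-fold higher against a floor of 3 counts over the group (edgeR adjusted p = 0.00694, and 0.0833 without the second WT spleen library). In Tg it had 4.14 and 5.18 CPM in muscle, against 2.64 and 1.66 CPM in spleen (edgeR adjusted p = 0.421). Of the exon length of Tgfb3, 12.4% is shared with predicted genes on the opposite strand, and these libraries do not mark strand.

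Among inhibitors outside the 10 genes, Pmepa1, whose product sequesters SMAD2 and SMAD3, had 45.2 and 42.8 CPM in Tg muscle Tregs, against 7.91 and 10.4 CPM in injured Tg spleen Tregs (log2 fold change 2.46 ± 0.32, edgeR adjusted p = 0.000187). In WT it had 40.4 and 30.9 CPM in muscle, against 12.6 and 8.22 CPM in spleen (1.99 ± 0.33, edgeR adjusted p = 0.000775). Bambi, a receptor-like protein without a kinase domain, had 3.79 and 16.45 CPM in Tg muscle, against 0.2395 and 1.42 CPM in injured Tg spleen, and 11.7 and 12.4 CPM in WT muscle, against 1.01 and 0 CPM in WT spleen. The groups did not overlap in either genotype, but the Tg muscle libraries differed widely. Its counts summed to 84 in Tg muscle, against 7 in injured Tg spleen, a ratio of 13.7 (95% exact interval 6.39 to 35.2). In WT it summed to 167 counts in muscle, against 2 in spleen, a ratio of 39.4 (10.8 to 328). Bambi was called higher in both genotypes (edgeR adjusted p = 0.0249 in Tg and 0.00634 in WT). The Tg call of Bambi was lost without the second Tg muscle library or either injured Tg spleen library (edgeR adjusted p between 0.0647 and 0.3), and the WT call without the second WT spleen library (edgeR adjusted p = 0.0972). In Tg its log2 fold change was 2.34 without the second Tg muscle library and 5.45 without the second injured Tg spleen library, and in WT it lay between 3.73 and 8.86 over the alternatives. The type I receptor gene Bmpr1a was higher in WT muscle, with 128 counts against 5 in spleen, a ratio of 12.1 (5.05 to 37.9). In Tg its libraries overlapped, at 7.59 and 2.93 CPM in muscle, against 1.92 and 4.02 CPM in spleen, and it was not called. Smad1, a SMAD of the bone morphogenetic protein branch, was lower in Tg muscle, with 5 counts against 72 in spleen, a ratio of 0.0795 (0.0251 to 0.194). WT muscle had 1.73 and 0.658 CPM of Smad1, against 2.01 and 7.77 CPM in WT spleen, without overlap and without a call. The Bmpr1a call was lost with thinning to the smallest library (edgeR adjusted p = 0.0551). It was also lost without the second WT muscle library or either WT spleen library, where the log2 fold change lay between 2.87 and 3.82. The Smad1 call was lost with thinning to the smallest library (edgeR adjusted p = 0.0572). It was also lost without any 1 of the 6 Tg libraries, where the log2 fold change lay between -4.33 and -2.82. These intervals cover counting error only.

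Genes on the list of induced targets moved in both directions. Which ligand of the family acts on each of them in these Tregs, and in which direction, was not tested. Itgae, the CD103 chain, had 1384 and 1451 CPM in Tg muscle Tregs, against 403 and 428 CPM in injured Tg spleen Tregs, a log2 fold change of 1.97 ± 0.24 (edgeR adjusted p = 0.000636). In WT it had 832 and 1470 CPM in muscle, against 147 and 158 CPM in spleen, a log2 fold change of 3.11 ± 0.26 (edgeR adjusted p = 2.57e-05). Id2, an inhibitor of helix-loop-helix factors, was higher by 1.88 ± 0.25 in Tg and 2.81 ± 0.27 in WT, while its relative Id3 fell by 3.41 in Tg and by 3.35 in WT on the log2 scale. Id3 had 11.4 and 18.02 CPM in Tg muscle Tregs, against 183 and 182 CPM in injured Tg spleen Tregs, and 21.0 and 25.8 CPM in WT muscle, against 260 and 290 CPM in WT spleen. Klf10, a TGF-beta early response gene, was higher in WT muscle only (0.96 ± 0.23, edgeR adjusted p = 0.0105, and 0.149 without the second WT spleen library), and Tg gave 0.44 ± 0.22 (edgeR adjusted p = 0.283). The difference between genotypes passed for 0 of the 47 genes in the main edgeR fit. Over the alternatives that left out no library it passed for between 0 and 2 of the other pathway genes. Foxp3 was higher in muscle by 0.90 in Tg (edgeR adjusted p = 0.00046) and by 0.68 in WT (edgeR adjusted p = 0.00254), with 31.5% of its exon length shared with other annotated genes.

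**Figure D4:**
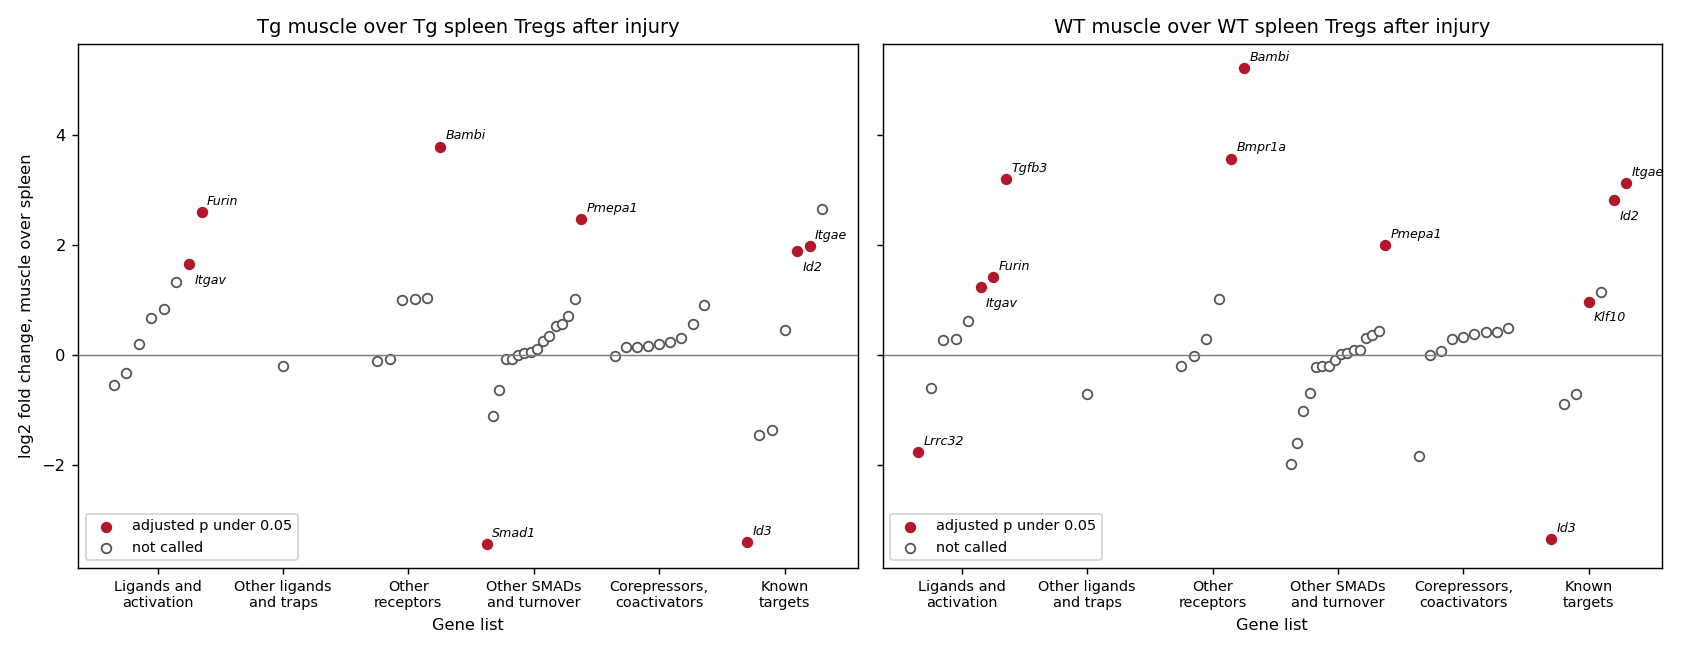
The log2 fold change in muscle over spleen Tregs (vertical axis, edgeR on the TMM scale) of the other pathway genes tested, in 6 lists, for Tg and WT mice, with filled and named points at an adjusted p under 0.05. The WT points of Tgfb3 and of Cdkn2b, which had 0 counts in spleen, are drawn at their lower bounds of 3.19 and 1.14, and Id3 is the lowest named point in WT at -3.35.

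The next question was whether these genes differed between Tg and WT muscle Tregs at day 3. Transgene and sort gate differ together here and cannot be told apart. In Tg against WT muscle, 0 of the 10 genes passed in edgeR and 0 in DESeq2, where edgeR called 0.318% of all genes (42 genes, and 1152 before adjustment). Among the 10, 1 gene had an unadjusted p under 0.05, Tgif1, with a log2 fold change of 0.37 ± 0.16 (unadjusted p = 0.0377, edgeR adjusted p = 0.542). Tgif1, Ski and Smad7 had higher CPM in both Tg libraries than in both WT libraries, which makes 3 of 10 genes without overlap, where 36.4% of all tested genes did not overlap and 17.7% were higher in this way. Smad7 averaged 62.6 ± 1.21 CPM in Tg and 51.6 ± 1.76 CPM in WT (SD, n = 2 each), and Ski 153 ± 3.69 CPM in Tg and 125 ± 15.0 CPM in WT. The 10 log2 fold changes lay between -2.00 for Tgfbr3, which rests on 1 count in Tg and 7 in WT, and 0.37. This comparison shares its muscle libraries with the tissue comparisons. Of the other pathway genes 0 of 47 were called in the main fit, and between 0 and 2 over the alternatives that left out no library.

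In spleen after injury, 0 of the 10 genes differed between Tg and WT at an adjusted p under 0.05 in edgeR or DESeq2, where edgeR called 1.3% of all genes (172 genes, and 1422 before adjustment). Skil came nearest, with 90.8 and 84.9 CPM in Tg, against 123 and 134 CPM in WT, a log2 fold change of -0.56 ± 0.17 (edgeR adjusted p = 0.135). Tgfbr3 had 5.75 and 2.84 CPM in Tg, against 12.1 and 15.1 CPM in WT, a log2 fold change of -1.67 that did not pass (edgeR adjusted p = 0.56, and between 0.118 and 0.941 over the alternatives). Smad4 had 32.3 and 29.3 CPM in Tg, against 41.3 and 44.9 CPM in WT, at -0.49. In CPM, 8 of the 10 genes had no overlap between Tg and WT libraries, where 43.1% of all tested genes did so. Of the 47 other pathway genes 2 were called, both higher in Tg. Itgae had 403 and 428 CPM in Tg, against 147 and 158 CPM in WT (1.44 ± 0.25, edgeR adjusted p = 0.0202), and Id2 had 128 and 106 CPM in Tg, against 44.3 and 34.9 CPM in WT (1.58 ± 0.26, edgeR adjusted p = 0.011). Both calls were lost without the first or the second injured Tg spleen library or the second WT spleen library, and that of Itgae also without the first WT spleen library, with edgeR adjusted p between 0.0536 and 0.231. The summed macrophage markers also stood higher in Tg spleen, at 148 to 161 CPM, against 90.8 to 111 CPM in WT spleen. Lyz2 alone of that list went the other way, at 16.3 and 1.89 CPM in Tg, against 54.4 and 3.998 CPM in WT. Each of the 7 genes was not called in edgeR, and their part in these values was not tested.

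Injured and uninjured Tg mice were compared to ask whether muscle injury is mirrored in spleen Tregs. Among the 10 genes 0 passed in edgeR and 0 in DESeq2, where edgeR called 0% of all genes (0 genes, and 236 before adjustment), and each of the 10 had an adjusted p of 1. Tgfbr1 had 85.5 and 96.0 CPM after injury, against 62.4 and 64.4 CPM without, a log2 fold change of 0.49 that was largest in size among the 10. Smad7 had 18.2 and 16.5 CPM after injury, against 8.67 and 16.2 CPM without (0.44), and Smad3 had 96.3 and 114 CPM after injury, against 112 and 153 CPM without (-0.36). Libraries of 3 of the 10 genes did not overlap, where 31.7% of all tested genes did not. With 2 libraries a group, differences of this size were not called, which does not show that these genes had equal levels.

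**Figure D5:**
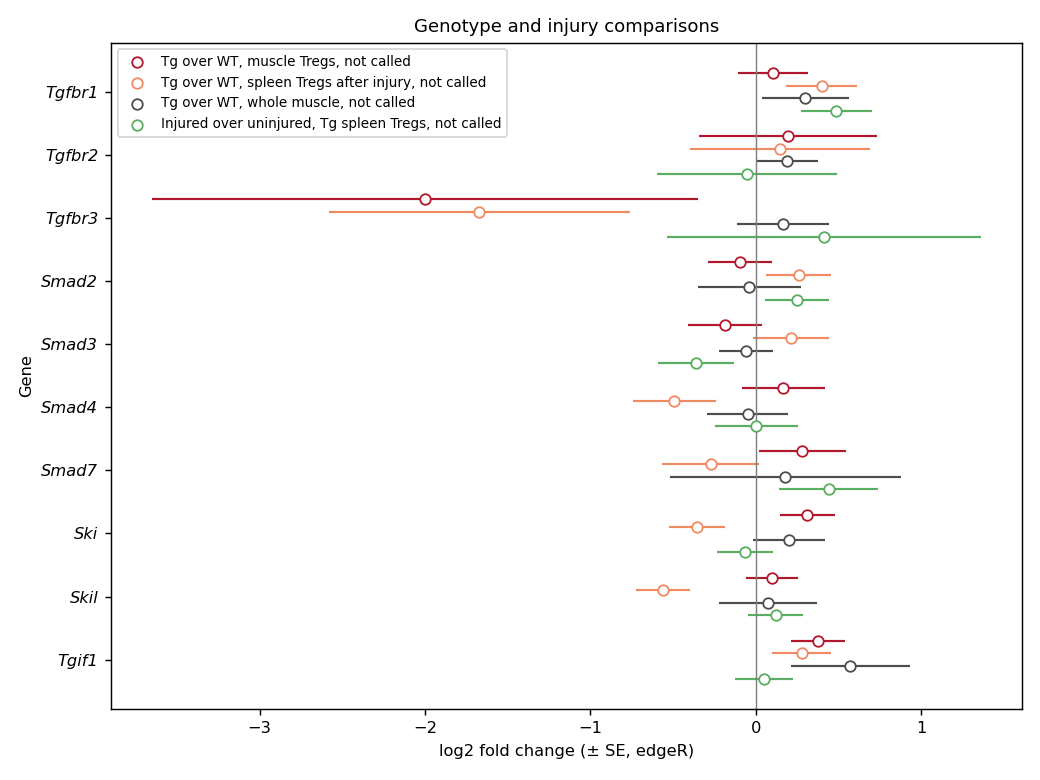
The log2 fold change of each gene (horizontal axis, edgeR on the TMM scale, bars ± SE) for Tg over WT in muscle Tregs, spleen Tregs after injury and whole muscle, and for injured over uninjured Tg spleen Tregs. All points are open, since 0 of the 10 genes passed in any of the 4 comparisons, and the largest in size is Tgfbr3 in muscle Tregs at -2.00, from 1 count in Tg and 7 in WT.

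In whole muscle at day 8 the order of the genes differed from that in Tregs. Per kilobase, Smad3 led in both genotypes, at 10.9 ± 2.26 CPM per kb in Tg and 11.1 ± 0.889 in WT (SD, n = 3 each), and Smad7 was the lowest, at 0.434 ± 0.168 in Tg and 0.371 ± 0.207 in WT. Tgfbr3, nearly absent from muscle Tregs, had 36.8, 20.0 and 21.1 CPM in Tg whole muscle, against 21.8, 31.4 and 13.9 CPM in WT. Tgif1 had 8.22, 7.85 and 8.34 CPM in Tg, against 4.20, 5.31 and 6.67 CPM in WT. All 3 Tg libraries of Tgif1 were above all 3 WT libraries, the only such gene of the 10, where 9.63% of all tested genes did not overlap and 5.77% were higher in this way. Its log2 fold change of 0.57 ± 0.36 did not pass (edgeR adjusted p = 0.994). Of the 10 genes, 0 were called in edgeR and 0 in DESeq2, where edgeR called 0.0323% of 12377 tested genes (4 genes, and 598 before adjustment), and of the 61 other pathway genes tested 0 were called. Treg markers summed to 9.39 to 12 CPM in Tg whole muscle and 7.06 to 13.4 CPM in WT. Macrophage markers summed to 1433 to 1873 CPM in Tg and 522 to 1474 CPM in WT, and fibroblast markers to 3012 to 4571 CPM in Tg and 1609 to 3595 CPM in WT. Their part in the Tgif1 values was not tested, and in whole tissue fewer cells of a type and less RNA per cell cannot be told apart.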

How the data were processed

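RNA was measured in 10 sorted Treg and 6 whole muscle libraries of mice. The authors deposited raw, whole-number counts of reads per gene symbol. Reads were aligned with STAR 2.5.4 to mm10 and counted with featureCounts, per the submitters' processing notes, with version, annotation and strand setting of the counting not given in the sources used here. By the labels' protocols, oligo(dT)-primed cDNA was fragmented by transposon, which does not mark strand. The protocol and the design text differ in the number of cells sorted, so none is used.

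CPM are counts divided by library totals. Tests used edgeR 4.0.16 (R 4.3.3) with filterByExpr, TMM scaling, robust quasi-likelihood fits and Benjamini-Hochberg adjustment over all tested genes: 13188 in 1 fit of 5 Treg groups and 12377 in the whole muscle fit. SEs are approximated from the test statistic. All 10 genes passed both filters. The procedure was tested on simulated data. Whether replicates are separate animals is not stated, so the p-values reflect only the spread among these samples and may be technical. Intervals cover counting error only, since reads carry no molecular identifiers.

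The genes and the lists were chosen with earlier results of these data known. The text names the 10 genes, up to 3 called genes per direction and list, Tgfb1, Lrrc32, Itgae and Foxp3, and the 3 most similar genes of the 3 most variable members. Coordinates and exon lengths are from GENCODE M21 (GRCm38, the assembly of mm10), promoters from RefSeq GRCm38.p6. Alternatives were other scalings and filters, DESeq2 1.42.0, a replicate block, thinning to the smallest library, the compared groups alone and leaving out each library.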

Additional observations from a re-analysis of the deposited data

How the results depend on the processing

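Of the 70 log2 fold changes of the 10 genes over 7 comparisons, 8 changed sign under a setting other than leaving out a library and 26 when a library was left out. Of those that changed sign, 0 were called. The number of the 10 genes called in WT muscle against spleen was 5, fell to 3 when the compared groups were fitted alone, and lay between 3 and 6 when 1 library was left out (3 without the second WT spleen library). In Tg muscle against spleen it was 4, lay between 3 and 5 when 1 library was left out, and between 4 and 5 otherwise. In the other 5 comparisons it was 0 throughout.

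With library totals in place of TMM, an alternative chosen after seeing the data, the log2 fold change turned to -0.063 for Tgfbr2 and -0.047 for Ski in WT, and to -0.005 for Tgfbr2, -0.107 for Smad2 and -0.069 for Smad4 in Tg. Thinning to the smallest library gave -0.025 for Smad2 in Tg. When 1 library was left out, the range was -0.49 to 0.59 for Tgfbr2 and -0.004 to 0.304 for Ski in WT. In Tg it was -0.34 to 0.23 for Tgfbr1, -0.74 to 0.75 for Tgfbr2 and -0.011 to 0.265 for Smad4. The calls of Smad3 in WT (adjusted p between 0.00132 and 0.283), Tgfbr3 in WT (0.000216 to 0.105) and Ski in Tg (0.000985 to 0.107) were lost under some alternatives, and those of Tgif1, Skil and Smad7 under none. The cause was not tested.

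Over all genes, the number called ranged from 887 to 2768 in WT muscle against spleen (2143 as reported), from 452 to 1466 in Tg (973), from 10 to 361 for Tg against WT muscle Tregs (42), from 57 to 372 for Tg against WT spleen Tregs (172), from 3 to 241 for the difference of tissue differences (18), from 0 to 5 for injured against uninjured and from 2 to 11 in whole muscle (4). Deviations of same-numbered libraries correlated between -0.03 and 0.11 over all genes. With 2 libraries a group, the 2 deviations mirror each other, so each pair of Treg groups gives only 1 value. Whether replicate numbers mark paired samples or a shared batch is therefore not settled. With the replicate number as a block, 5 of the 10 genes were called in WT and 4 in Tg. Of 70 group levels, 57 moved by less than 1 SD with TMM scaling. Depth limits Tgfbr3, Bambi, Smad1 and Tgfb3, which rest on few counts in at least 1 group.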
